A study of Mus musculus with 8 samples.

Results

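The genes described here encode the molecules of antigen presentation in the mouse major histocompatibility complex (MHC). They were taken from the table by name: every protein-coding gene whose name starts with H2-, together with B2m, Tap1, Tap2, Tapbp, Cd74, Ciita, Nlrc5, Psmb8, Psmb9 and Psmb10. This gave 44 of the 55933 genes in the table, of which 21900 are protein coding. They were split into 24 class I heavy chains, 8 genes of the class I machinery, 11 class II genes and 1 gene of neither class. The last, H2-Ke6, carries an H2 name but encodes a hydroxysteroid dehydrogenase. A further 11 genes with H2 names have another biotype in the table and were not members. In GRCm38, 39 of the 44 lie on chromosome 17.

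MHC class I molecules are a heavy chain paired with B2m. They carry peptides cut by the proteasome and pumped into the endoplasmic reticulum by the TAP transporter, and show them to CD8 T cells and NK cells on nearly every nucleated cell. MHC class II molecules are pairs of an alpha and a beta chain that travel with the invariant chain Cd74 to endosomes, exchange part of it for peptides of engulfed proteins with the help of H2-DM, and show them to CD4 T cells. Class II is best known from B cells, dendritic cells and macrophages, and interferon gamma can induce it in epithelial cells.

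RNA was sequenced from mammary epithelial cells of C57BL/6 mice at pregnancy day 14.5, in 4 control and 4 cKO mice with 1 library per mouse. The cKO mice carried K14-rtTA, teto-Cre and Bmpr1a fl/fl and drank doxycycline until collection, so that Cre, switched on through the K14 promoter, deletes the floxed type I BMP receptor gene Bmpr1a in myoepithelial cells. The controls are called WT in the labels and littermates in the methods, and their exact genotype is not given in the sources used here. The glands were digested with collagenase and hyaluronidase and red cells were lysed, but no cell type was sorted, so every library holds the RNA of all cells in the preparation.

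Promoters of MHC genes share a group of short boxes bound by the RFX, CREB and NF-Y factors, of which the X2 box (core TGACG) and the Y box (CCAAT, or ATTGG on the other strand) are the easiest to find by letters. The 250 bases before the RefSeq start (GRCm38.p6) were searched on both strands for 37 of the 44 genes, those with an entry, and for 27025 genes in all. CCAAT was in 32 of the 37 windows (86.5%) and in 37.5% of all windows. TGACG was in 15 of the 37 (40.5%) and in 19.8% of all. A window with both boxes, the Y box starting 15 to 30 bases after the X2 box, was seen for 11 of the 37 (29.7%) and for 1.18% of all. The arrangement TGACG followed by ATTGG at that distance was seen for B2m, H2-Aa, H2-D1, H2-K1, H2-M3 and H2-Q7, which is 6 of the 37 (16.2%) against 0.303% of all. These matches describe letters, and binding was not measured.

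Windows around this pair are shown for 4 of the 6 genes, a class II alpha chain and 3 class I genes, since their transcripts are followed below. The strand is that of the gene, and capitals mark TGACG and ATTGG. The B2m window (chr2:122147569-122147648, + strand) lies in an intron of Patl2, which runs on the other strand. Those of H2-K1 (chr17:34000349-34000428, - strand), H2-Q7 (chr17:35439051-35439129, + strand) and H2-Aa (chr17:34287857-34287937, - strand) lie upstream of the annotated gene and between genes. The start of ATTGG is 25 bases from that of TGACG in B2m and H2-K1, 24 in H2-Q7 and 26 in H2-Aa.
B2m: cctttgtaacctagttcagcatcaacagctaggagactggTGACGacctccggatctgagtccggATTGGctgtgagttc
H2-K1: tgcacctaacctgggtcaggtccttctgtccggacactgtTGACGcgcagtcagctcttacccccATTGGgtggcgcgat
H2-Q7: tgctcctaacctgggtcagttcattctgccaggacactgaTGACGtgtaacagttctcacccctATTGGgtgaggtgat
H2-Aa: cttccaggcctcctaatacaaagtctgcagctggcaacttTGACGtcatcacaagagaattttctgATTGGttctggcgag

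Expression is given as FPKM, the fragments on a gene per kilobase of its length after scaling for depth. Reads on genes numbered 16123108 to 19896988 per library. Luminal keratins and Epcam summed to 4336 to 5645 FPKM and myoepithelial markers to 1406 to 2052, beside 165 to 492 for fibroblast markers, 183 to 410 for macrophage markers and 14.3 to 53.7 for 4 pan-leukocyte markers. Bmpr1a was between 8.74 and 11.7 FPKM in the controls and between 10.2 and 12.0 in the cKO libraries. The groups overlapped and the cKO values were on the higher side, so this transcript does not check the labels, on which each direction below rests. The limma test was run on log2(FPKM + 1) over the 15143 genes with a mean of at least 0.5 FPKM, and all log2 differences are cKO minus control on that scale. Of these genes, 135 passed an adjusted p of 0.05 (0.892%). Bmpr1a had a log2 difference of 0.13 (unadjusted p = 0.217, limma). That p fell under 0.05, with higher cKO values, in 2 alternative fits, which take the replicate number or replicates 1 and 2 against 3 and 4 as a term.

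Most MHC genes had lower means in the cKO libraries without passing the test after adjustment over all genes. Of the 44 genes, 30 passed the filter on low values, and 27 of these 30 had a log2 difference below 0, against 49.8% of all genes tested. An unadjusted p under 0.05 was reached by 12 of the 30 in the direction of lower cKO values, where 7.53% of all genes tested did so. In the other direction it was reached by 0 of the 30, against 8.85% of all genes. After adjustment 0 of the 30 passed with limma, and 1, Cd74, passed with limma-voom on the recovered reads. Every cKO library lay below every control library for 7 of the 30, namely Cd74, H2-Eb1, H2-Aa, H2-Ob, Psmb8, H2-M9 and H2-M3, and this held for 4.6% of all genes. The median log2 difference was -0.55 over the 9 class II genes tested, -0.27 over the 8 machinery genes, -0.22 over the 13 heavy chains and 0.000715 over all genes. H2-Ob and H2-DMb2 passed the filter only through their controls, with cKO means under 0.5 FPKM, so the filter fixed their direction. Without them, counted after seeing the data over genes with a mean of at least 0.5 FPKM in both groups, 11 of 28 members reached that p with lower cKO values (7.36% of 14609 genes), 6 of 28 did not overlap (4.55% of genes) and the median of the 7 class II genes was -0.50. In bulk RNA, fewer cells of a type and less RNA per cell cannot be told apart. The cKO library of replicate 4 was the highest of its group for many members. Without it, the groups did not overlap for 19 members instead of 7, while the share of all genes went from 4.6% to 6.16%. When libraries were scaled to an equal FPKM sum, the all-gene split of unadjusted calls moved from 1140 lower and 1340 higher to 1657 lower and 789 higher, and Cd74 passed the adjusted threshold (adjusted p = 0.035).

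**Figure D1:**
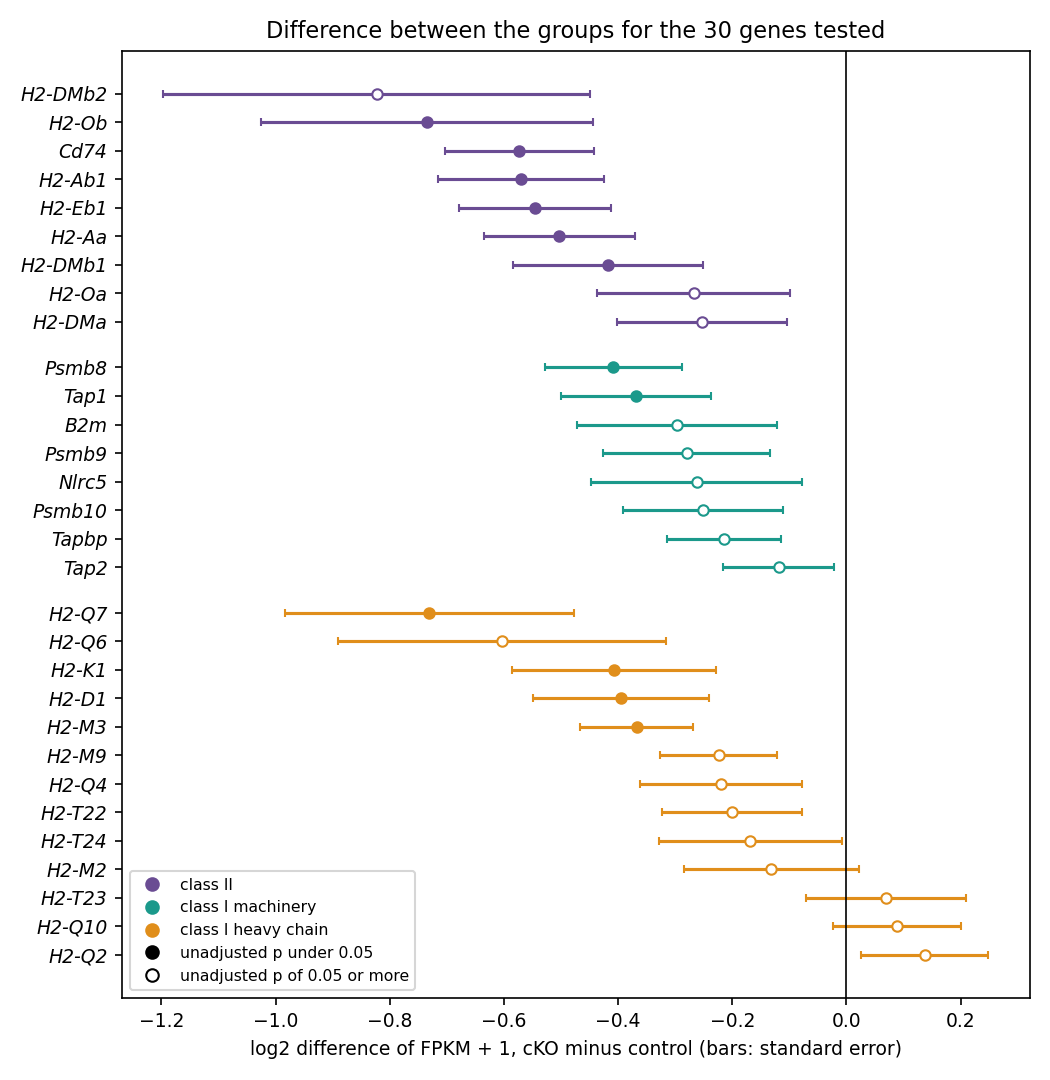
Log2 difference of FPKM + 1, cKO minus control, for the 30 genes tested (x axis), with 1 gene per line, bars for the standard error and filled points for an unadjusted p under 0.05. All class II and machinery genes lie left of 0, between -0.82 and -0.12, and 3 heavy chains lie right of it.

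Class II showed the largest shift, and it was shared by the peptide-binding chains and the invariant chain. Cd74, the chaperone that fills the class II groove until the endosome, was at 425, 332, 479 and 386 FPKM in control replicates 1 to 4 and at 269, 254, 243 and 319 in cKO replicates 1 to 4. No cKO library reached the lowest control. The log2 difference was -0.57 (SE 0.13), the change of the mean was -33.1%, and the adjusted p was 0.0811 (limma). H2-Eb1 (chr17:34305867-34316674), the beta chain of the E molecule whose alpha chain gene the table lists as a pseudogene, was at 139, 106, 159 and 119 FPKM in the controls and at 85.6, 90.1, 77.3 and 102 in the cKO libraries. The groups again did not overlap, with a log2 difference of -0.55 (SE 0.13, adjusted p = 0.0971). H2-Aa (chr17:34282744-34287823), the alpha chain of the A molecule, was at 69.4, 51.4, 75.3 and 59.6 FPKM against 45.3, 44.3, 37.6 and 51.2. Here the highest cKO library, replicate 4, came within 0.2 FPKM of the lowest control, replicate 2. The log2 difference was -0.50 (SE 0.13, adjusted p = 0.116). H2-Ab1 (chr17:34257689-34269419), its beta chain partner, was at 104, 74.7, 113 and 91.5 FPKM in the controls and at 65.6, 55.9, 57.2 and 77.2 in the cKO libraries. A single cKO library, replicate 4, lay above a control library, and the log2 difference was -0.57 (SE 0.15, adjusted p = 0.108).

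These 4 genes moved from library to library in nearly fixed proportion. Per length, Cd74 was 5.72 to 6.48 times H2-Aa over the 8 libraries, H2-Eb1 was 1.89 to 2.11 times H2-Aa and H2-Ab1 was 1.26 to 1.54 times H2-Aa. The replicate numbers pair no known litters. For Cd74, H2-Eb1 and H2-Aa, whose groups do not overlap, any pairing of libraries gives the lower value in cKO. For H2-Ab1 all 4 same-numbered pairs did. Between replicates 1 and 2 alone the log2 differences were -0.52 for Cd74, -0.46 for H2-Eb1, -0.53 for H2-Ab1 and -0.41 for H2-Aa, and between replicates 3 and 4 alone they were -0.62, -0.63, -0.61 and -0.60. Both sets of mice therefore gave the same direction. The sum of all 11 class II genes was 711 ± 117 FPKM (SD, n = 4) in the controls and 478 ± 59.5 (SD, n = 4) in the cKO libraries.

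**Figure D2:**
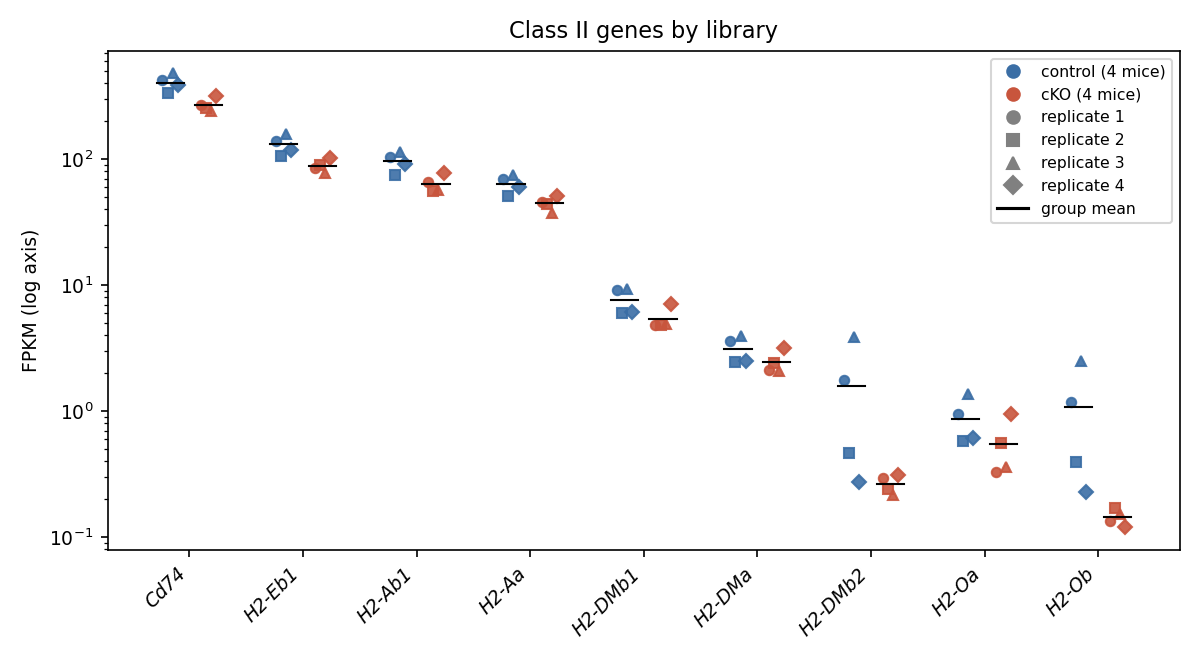
FPKM on a log axis for the 9 class II genes tested, with 1 point per library (4 control, 4 cKO), marker shape for the replicate number and a bar for the group mean. Cd74, H2-Eb1, H2-Aa and H2-Ob show no overlap between the groups, and the controls of H2-DMb2 and H2-Ob spread widely, with replicate 3 highest.

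The peptide editors were less abundant and overlapped more. H2-DMb1, a beta chain of the DM molecule that swaps the invariant chain remnant for peptide, was at 9.06, 5.98, 9.23 and 6.15 FPKM in the controls and at 4.81, 4.83, 4.87 and 7.11 in the cKO libraries. The cKO library of replicate 4 stood above 2 controls. The log2 difference was -0.42 (SE 0.17), the adjusted p was 0.255 (limma), and the unadjusted call was lost without any 1 of 5 libraries (control replicates 1 and 3 and cKO replicates 1, 2 and 3), with log2 differences between -0.38 and -0.33, and with the replicate block, a fit that takes the replicate number as a term. H2-DMa, the alpha chain, ranged from 2.46 to 3.91 FPKM in the controls and from 2.06 to 3.19 in the cKO libraries (log2 difference -0.25, SE 0.15, adjusted p = 0.447). It was -0.16 without control replicate 3 and -0.35 without cKO replicate 4, where the unadjusted p was under 0.05. Its exons share 360 bases with Brd2 on the opposite strand, whose reads were up to 11463 in a library against at most 226 for H2-DMa, and strand use in counting is not given in the sources used here. H2-Oa, the alpha chain of the DM inhibitor H2-O, was below 1.36 FPKM in every library (log2 difference -0.27, SE 0.17, adjusted p = 0.479). The same libraries set its range, -0.15 and -0.38, with an unadjusted p under 0.05 in the second case.

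A second pattern within class II was set by single control libraries. H2-Ob, the beta chain of H2-O and a gene known from B cells, was at 1.18, 0.397, 2.51 and 0.228 FPKM in the controls and at 0.135, 0.169, 0.152 and 0.120 in the cKO libraries. All cKO libraries lay below the controls, but control replicates 1 and 3 carried most of the difference. The log2 difference was -0.73 (SE 0.29, adjusted p = 0.255), from 226 reads in control replicate 3 and 13 to 15 reads in cKO replicates 1 to 3. A pseudocount of 1 understates a change at this level, and with a pseudocount of 0.1 the log2 difference was -1.82. The unadjusted call was lost without control replicate 1 (log2 difference -0.67) or without any 1 cKO library (-0.74 to -0.72), and without control replicate 3 the gene did not pass the filter and was not tested. H2-DMb2, the second DM beta chain gene, was at 1.75, 0.463, 3.89 and 0.274 FPKM in the controls and at 0.297, 0.243, 0.216 and 0.308 in the cKO libraries. Control replicate 4 lay among the cKO values, and the log2 difference was -0.82 (SE 0.37, adjusted p = 0.318). Its unadjusted p passed 0.05 without control replicate 2 (log2 difference -1.03) or without control replicate 4 (-1.09), and the log2 difference was -0.45 without control replicate 3 and -1.62 with a pseudocount of 0.1. That p was also under 0.05 with the lower pseudocount, with an equal FPKM sum, with protein-coding genes alone and in limma-voom with the replicate block. Its level relative to H2-DMb1 was 0.422 in control replicate 3, 0.193 in control replicate 1 and no more than 0.0774 in the other libraries. Of their 50-base windows, 27.2% for H2-DMb1 and 29.5% for H2-DMb2 recur in other transcripts, mostly each other's, so reads may be split between the 2 genes.

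The remaining class II genes did not pass the filter. H2-Eb2, a second E beta chain gene, was at 0.204, 0.0681, 0.739 and 0.0628 FPKM in the controls and at 0.0153, 0.0357, 0 and 0.0476 in the cKO libraries, from at most 42 reads. The groups did not overlap, and a two-sided exact permutation test gave p = 0.0286, the smallest that 4 against 4 libraries allow. Ciita, the class II transactivator, was at 0.297, 0.163, 0.545 and 0.140 FPKM in the controls and at 0.228, 0.165, 0.112 and 0.181 in the cKO libraries, which overlap (exact permutation test, two-sided, p = 0.314). Control replicate 3 was the highest library for both genes. Ciita exons also share bases with Dexi on the opposite strand.

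Markers of B cells were high in the same control libraries. Of 4 B cell markers, 2 were tested, Cd79a and Cd79b. Both had an unadjusted p under 0.05 and lower cKO values, where 7.53% of all genes tested did so. The 4 summed to 10.1, 3.72, 21.1 and 2.42 FPKM in control replicates 1 to 4 and to 2.18, 2.17, 1.36 and 1.75 in cKO replicates 1 to 4. Cd79a, a signalling chain of the B cell receptor, was at 6.06, 2.02, 14.0 and 1.32 FPKM in the controls and at 1.35, 1.04, 0.692 and 0.998 in the cKO libraries. Control replicate 4 lay among the cKO values. The log2 difference of Cd79a was -1.38, and -0.87 without control replicate 3, and its call was lost without control replicate 1 or cKO replicate 3. Cr2, a complement receptor of B cells, was at 0 in cKO replicate 3. When control replicates 1 and 3 were left out, a choice made after seeing the data that leaves 2 controls, H2-Ob and H2-DMb2 did not pass the filter. The log2 difference was then -0.41 for Cd74, -0.35 for H2-Eb1, -0.38 for H2-Ab1 and -0.31 for H2-Aa, which lost its unadjusted call, and 3 of 7 class II genes tested had an unadjusted p under 0.05 against 4.82% of all genes in that direction. The part of B cell RNA in the differences above was not tested further.

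**Figure D3:**
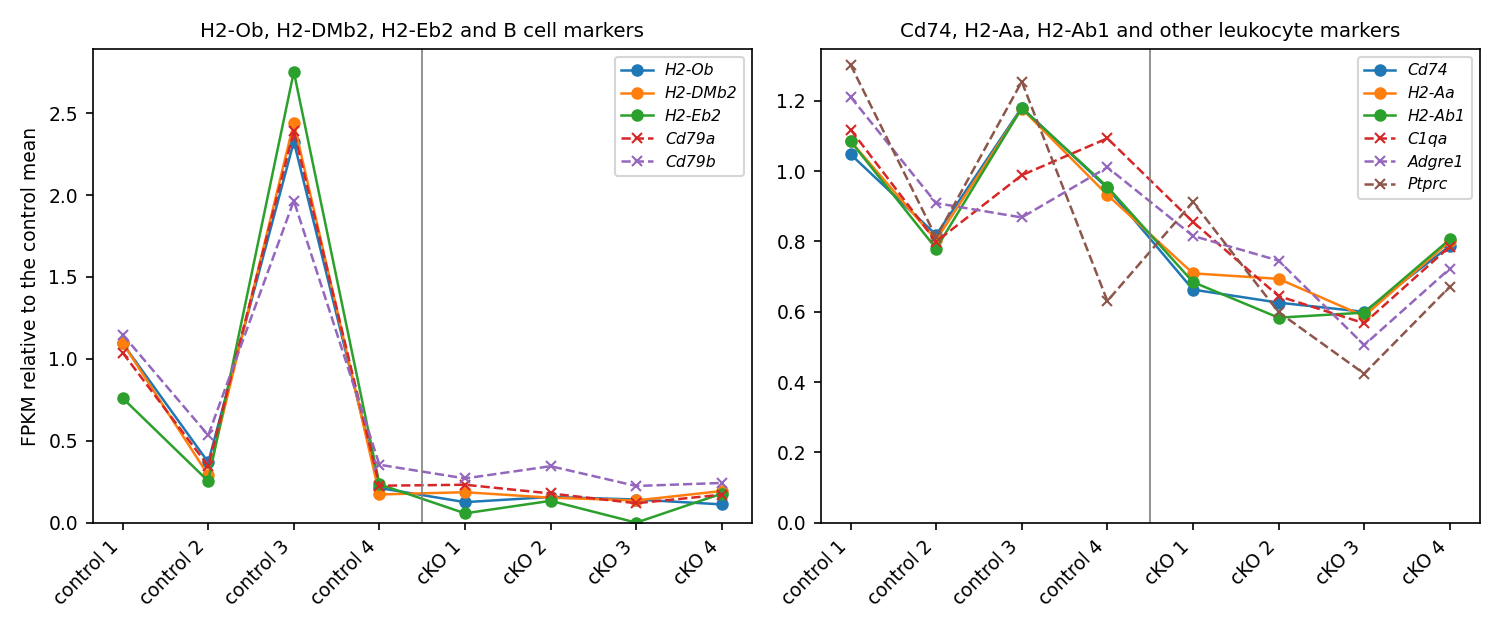
FPKM divided by the control mean (y axis) in each of the 8 libraries (x axis), for H2-Ob, H2-DMb2, H2-Eb2 and 2 B cell markers (left) and for Cd74, H2-Aa, H2-Ab1 and 3 markers of macrophages and leukocytes (right). The genes on the left are highest in control replicate 3, and those on the right lie in a narrower band.

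Most markers of other antigen-presenting cells also had lower means in cKO. Of 9 macrophage markers, 5 (Adgre1, Lyz2, C1qa, C1qb and C1qc) had an unadjusted p under 0.05 and lower cKO values. Of all genes tested 7.53% did so, a share that belongs beside each such count of markers below. The 9 summed to between 300.1 and 410 FPKM in the controls and between 183 and 305 in the cKO libraries. C1qa, a subunit of the complement initiator C1q, had a log2 difference of -0.48 (SE 0.15) and overlapped between the groups. The macrophage receptor gene Fcgr1 had a higher cKO mean (log2 difference 0.07, SE 0.14). Of 4 dendritic cell markers tested, Cd209a had such a p (log2 difference -0.51, SE 0.12), and the list of 7 summed to between 19.8 and 33.6 FPKM in the controls and between 16.1 and 23.7 in the cKO libraries. Under the filter, Xcr1 and Clec9a of that list had higher cKO means, Xcr1 without overlap (0.207 to 0.272 FPKM in the controls, 0.278 to 0.340 in cKO). Of 4 pan-leukocyte markers, Cd52 and Laptm5 had one, with sums between 21.5 and 53.7 FPKM in the controls and between 14.3 and 25.1 in the cKO libraries. Cd4 was the single one of 5 T and NK cell markers tested, but it passed the filter only through the controls (mean 1.15 FPKM against 0.446 in cKO). Cd3d, Cd3g and Cd8a did so too, with cKO means of 0.350, 0.337 and 0.278 FPKM, so the filter fixed the direction of all of these. The sums of that list were between 3.41 and 12.7 FPKM in the controls and between 1.91 and 4.08 in cKO, with Ncr1 at 0 in cKO replicates 1, 2 and 3. Single libraries decided part of these calls. Those of Cd52 and Laptm5 were lost without any 1 of control replicates 1 and 3 and cKO replicates 2 and 3, that of Lyz2 without control replicate 1 or cKO replicate 2 or 3, and that of C1qb without control replicate 1. With replicates 1 and 2 against 3 and 4 as a block, Cd52 and Laptm5 were also lost, as were Cd52 with no filter on low values and Laptm5 with the replicate block. With both control replicates 1 and 3 left out, chosen after seeing the data, the calls of Cd52, Laptm5, Lyz2, C1qa, C1qb and Cd4 were lost. Those of Adgre1, C1qc and Cd209a stayed. In the reported fit none of these markers passed the adjusted threshold. With other settings some did, Cd209a with that block (adjusted p = 0.0417, limma) and with protein-coding genes alone (0.0423), and Lyz2 (0.0117), C1qa (0.0241), C1qc (0.0241), Adgre1 (0.0471) and Cd4 (0.0400) in limma-voom with the replicate block. Of the epithelial markers, 0 of 4 luminal markers and 1 of 4 myoepithelial ones, Krt14 (log2 difference -0.39, SE 0.14), had an unadjusted p under 0.05. Among the other myoepithelial markers, Acta2 (0.21) and Krt5 (0.02) had higher cKO means and Myh11 (-0.08) a lower one. Krt14 passed the adjusted threshold in limma with replicates 1 and 2 against 3 and 4 as a block (adjusted p = 0.0187) and in limma-voom with the replicate block (0.00972). Its unadjusted call was lost without any 1 of control replicates 3 and 4 and cKO replicates 1 and 2.

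Markers of cells that do not belong to the immune system also had different means. Over all genes tested, 49.8% had a log2 difference below 0, and 7.53% had an unadjusted p under 0.05 downwards and 8.85% upwards. All 4 erythroid markers had lower cKO means, with an unadjusted p under 0.05 for the globins Hba-a1 (log2 difference -0.50, SE 0.17) and Hba-a2 (-0.38, SE 0.16). The call of Hba-a1 was lost without cKO replicate 2 or 4, and that of Hba-a2 without any 1 of 6 libraries (all except control replicate 2 and cKO replicate 1). That of Hba-a2 was also lost with no filter on low values and in limma-voom with or without the replicate block. The adjusted p of Hba-a1 ranged from 0.0369 to 0.4985 over the alternatives. The erythroid sums were 21.9 to 29.3 FPKM in the controls and 13.7 to 26.9 in the cKO libraries. The 4 fibroblast markers also had lower means, at 246 to 492 FPKM summed against 165 to 371, with 0 at that threshold. All 4 endothelial markers were on the same side, and Pecam1, an adhesion molecule of endothelium, had such a p (log2 difference -0.29, SE 0.12), which was lost without any 1 of control replicates 1, 2 and 3 and cKO replicates 3 and 4. Of the 2 adipocyte markers tested both had higher cKO means, and Adipoq, the hormone adiponectin, had such a p (0.71, SE 0.27). It passed the filter only through the cKO libraries, and its call was lost with the replicate block and without any 1 of control replicates 2 and 4 and cKO replicates 2 and 4. The part of any of these cells in the MHC differences was not tested.

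Among the class I heavy chains, the classical genes dominated. H2-K1 and H2-D1, which encode the K and D molecules, together held 75.4% to 78.9% of the summed heavy chain FPKM in each library. H2-K1 (chr17:33996017-34000347) was at 868, 566, 727 and 694 FPKM in the controls and at 546, 448, 457 and 716 in the cKO libraries. H2-D1 (chr17:35262730-35267499) was at 642, 452, 566 and 556 FPKM in the controls and at 414, 357, 379 and 545 in the cKO libraries. For both genes 3 cKO libraries lay below all controls, and replicate 4 lay among them. Log2 differences were -0.41 for H2-K1 (SE 0.18, adjusted p = 0.303) and -0.40 for H2-D1 (SE 0.15, adjusted p = 0.249). Both unadjusted calls were lost without any 1 of 6 libraries, all except control replicate 2 and cKO replicate 4, with log2 differences between -0.42 and -0.31 for H2-K1 and between -0.39 and -0.32 for H2-D1, and that of H2-K1 also with no filter on low values and with replicates 1 and 2 against 3 and 4 as a block. H2-D1 stayed at 0.739 to 0.828 of H2-K1 in every library.

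The heavy chains outside the classical pair varied from gene to gene. H2-Q7, which encodes a Qa-2 antigen tied to the membrane by a lipid anchor, was at 44.1, 21.6, 28.3 and 23.4 FPKM in the controls and at 17.3, 13.8, 12.7 and 24.9 in the cKO libraries. Its log2 difference was -0.73 (SE 0.25, adjusted p = 0.202), and its unadjusted call was lost without cKO replicate 2 (-0.65) or cKO replicate 3 (-0.61). H2-Q6, its near copy, ranged from 66.8 to 123 FPKM in the controls and from 38.0 to 98.6 in the cKO libraries (log2 difference -0.60, SE 0.29, adjusted p = 0.339), and its unadjusted p passed 0.05 without cKO replicate 4 (-0.86) or control replicate 2 (-0.73), with an equal FPKM sum and in limma-voom. Since 34.9% of the 50-base windows of H2-Q7 and 32.0% of those of H2-Q6 recur in other transcripts, the split of reads between them is uncertain. H2-M3, which presents peptides that start with formyl-methionine, was at 5.38, 5.34, 6.52 and 4.63 FPKM in the controls and at 4.43, 4.05, 3.50 and 4.01 in the cKO libraries. No cKO library reached a control. Its log2 difference was -0.37 (SE 0.10, adjusted p = 0.124), only 0.576% of its windows recur elsewhere, and its unadjusted p stayed under 0.05 without any 1 library.

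The other heavy chains that passed the filter had no unadjusted p under 0.05. H2-M9 did not overlap between the groups (4.76 to 6.84 FPKM in the controls, 4.15 to 4.74 in cKO, log2 difference -0.22, SE 0.10, adjusted p = 0.322). It reached an unadjusted p under 0.05 with either block and without control replicate 3 (-0.27), and was -0.13 without control replicate 1. H2-Q4 ranged from 92.0 to 130.2 FPKM in the controls and from 80.6 to 121 in the cKO libraries, with a log2 difference of -0.22 (SE 0.14). H2-T22, a ligand of some gamma delta T cells, differed by -0.20 (SE 0.12), H2-T24 by -0.17 (SE 0.16) and H2-M2 by -0.13 (SE 0.15). With each library left out, H2-Q4 ranged from -0.33 (without control replicate 2) to -0.12, H2-T22 from -0.32 (without cKO replicate 4) to -0.14, H2-T24 from -0.28 (without control replicate 3) to -0.08 and H2-M2 from -0.27 (without cKO replicate 1) to -0.02, each weakest without cKO replicate 3. An unadjusted p under 0.05 was reached by H2-Q4 without control replicate 2, by H2-T22 without cKO replicate 4 and by both with an equal FPKM sum. On the other side of 0, H2-T23, which encodes the Qa-1 molecule read by NK receptors, was at 76.3, 59.5, 83.3 and 76.9 FPKM in the controls and at 83.1, 69.4, 65.0 and 94.6 in the cKO libraries. These overlap, with control replicate 2 below every cKO library and cKO replicate 4 above every control. The log2 difference of 0.07 (SE 0.14, adjusted p = 0.845) turned to -0.03 without control replicate 2 or without cKO replicate 4. H2-Q10, which encodes a secreted class I molecule, was below 1.03 FPKM in every library (log2 difference 0.09, SE 0.11), and it was -0.000836 without cKO replicate 4. H2-Q2 was at most 1.01 FPKM (log2 difference 0.14, SE 0.11, and 0.03 without control replicate 2). The sum of all 24 heavy chains was 1618 ± 259 FPKM (SD, n = 4) in the controls and 1256 ± 270.5 (SD, n = 4) in the cKO libraries.

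The 11 heavy chains under the filter were at or near 0. H2-M1, H2-Q1 and H2-M11 reached at most 0.928, 0.424 and 0.459 FPKM, and H2-M5, H2-M10.2, H2-M10.6 and H2-T3 at most 0.156. H2-M10.1, H2-M10.3, H2-M10.4 and H2-M10.5, members of a family known from vomeronasal neurons, had 0 reads in all 8 libraries, which allows up to 3 reads, or 0.0976 to 0.137 FPKM (counting error only). H2-Ke6 was at most 0.109 FPKM, and 62.9% of its windows recur in a gene with overlapping exons.

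The 4 heavy chains with an unadjusted p under 0.05, out of 13 tested, were H2-K1, H2-D1, H2-Q7 and H2-M3, where 7.53% of all genes were lower at that threshold. This count depended on single libraries. It was 6 without control replicate 2 or cKO replicate 4, 2 without control replicate 1, control replicate 4 or cKO replicate 1, and 1 without cKO replicate 2 or cKO replicate 3, namely H2-M3. With control replicates 1 and 3 left out it was also 1, H2-M3 with a log2 difference of -0.26. The share of all genes stayed between 6.06% and 7.88% with each library left out.

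**Figure D4:**
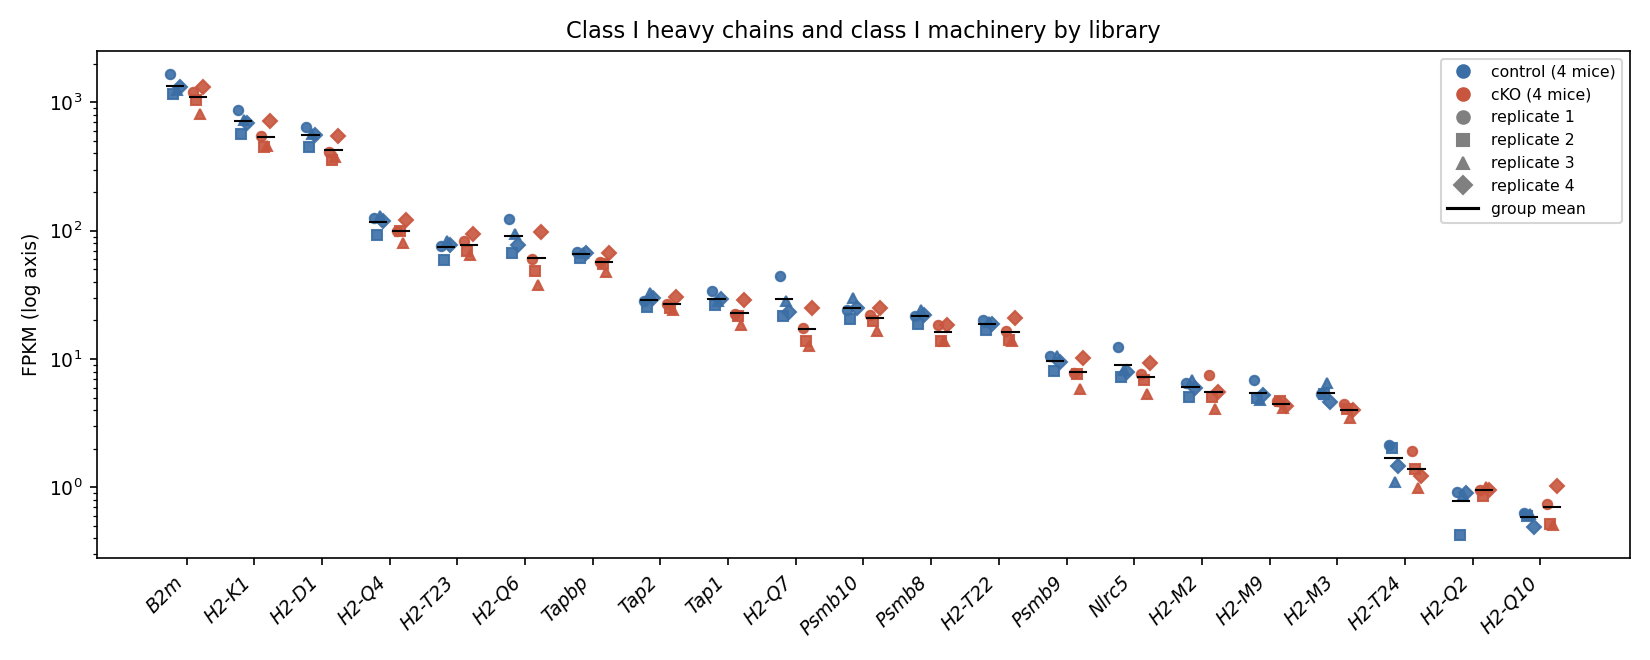
FPKM on a log axis for the 13 class I heavy chains and 8 machinery genes tested, with 1 point per library (4 control, 4 cKO), marker shape for the replicate number and a bar for the group mean. B2m, H2-K1 and H2-D1 stand above the rest, and the cKO library of replicate 4 sits at or near the top of its group for most genes.

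The genes that supply class I molecules had differences between -0.41 and -0.12 on the log2 scale. B2m (chr2:122147686-122153083), the light chain of every class I molecule, was the most abundant member, at 1670, 1166, 1241 and 1310 FPKM in the controls and at 1214, 1054, 818 and 1329 in the cKO libraries. The groups overlapped, with a log2 difference of -0.30 (SE 0.17, adjusted p = 0.448). It was -0.16 without cKO replicate 3, -0.19 without control replicate 1 and -0.39 without cKO replicate 4, and the unadjusted p was 0.0445 with the replicate block. B2m over the summed heavy chains ranged from 0.743 to 0.987. Tap1, a subunit of the peptide transporter, was at 34.1, 26.2, 28.3 and 29.4 FPKM in the controls and at 22.4, 21.6, 18.3 and 28.8 in the cKO libraries. Its log2 difference was -0.37 (SE 0.13, adjusted p = 0.213), and its unadjusted call was lost without control replicate 1 (-0.30) or cKO replicate 3 (-0.27). Tap2, its partner, ranged from 25.4 to 32.5 FPKM in the controls and from 24.1 to 30.7 in the cKO libraries (log2 difference -0.12, SE 0.10, adjusted p = 0.598). It was -0.06 without control replicate 3 and -0.19 without cKO replicate 4, and its unadjusted p passed 0.05 with an equal FPKM sum. Tapbp, the tapasin that bridges TAP and the heavy chain, ranged from 60.8 to 67.8 and from 47.8 to 67.4 FPKM (log2 difference -0.21, SE 0.10, adjusted p = 0.331). It was -0.14 without cKO replicate 3, and its unadjusted p was under 0.05 without cKO replicate 4 (-0.30), with the replicate block, with an equal FPKM sum and in limma-voom. Nlrc5, the transactivator of class I genes, ranged from 7.27 to 12.5 and from 5.30 to 9.36 FPKM (log2 difference -0.26, SE 0.18, adjusted p = 0.531), and its log2 difference was -0.11 without control replicate 1 and -0.38 without cKO replicate 4.

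The 3 immunoproteasome subunits replace the constitutive catalytic subunits under interferon and favour peptides that fit class I. Psmb8 (chr17:34197721-34201454) was at 21.7, 18.8, 24.0 and 21.9 FPKM in the controls and at 18.4, 13.8, 13.8 and 18.5 in the cKO libraries. No cKO library reached a control, and the log2 difference was -0.41 (SE 0.12, adjusted p = 0.145). Psmb9 differed by -0.28 (SE 0.15, adjusted p = 0.385) and Psmb10 by -0.25 (SE 0.14, adjusted p = 0.419), and both overlapped between the groups. Without cKO replicate 3 they were -0.16 and -0.15. Both reached an unadjusted p under 0.05 without control replicate 2 (-0.36 and -0.34), without cKO replicate 4 (-0.40 and -0.34) and with an equal FPKM sum. Psmb9 and Tap1 share 212 exonic bases on opposite strands. The subunits they replace differed less, with log2 differences of -0.05 for Psmb5, -0.07 for Psmb6 and -0.11 for Psmb7, none with an unadjusted p under 0.05. Per length, Psmb8 was at 0.261 ± 0.0365 (SD, n = 4) of Psmb5 in the controls and at 0.205 ± 0.0521 (SD, n = 4) in the cKO libraries.

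In the class I machinery, 2 of 8 genes (Tap1 and Psmb8) had an unadjusted p under 0.05, against 7.53% of all genes in that direction. This count was 1 without control replicate 1 or cKO replicate 3, 4 without control replicate 2 and 5 without cKO replicate 4, and 0 when both control replicates 1 and 3 were left out, where the share of all genes was 4.82%.

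Beyond the members, 56 genes around the pathway were read from the same fit. Of the 54 tested, 7 had an unadjusted p under 0.05 with lower and 3 with higher cKO values, where the shares of all genes were 7.53% and 8.85%, and the median log2 difference was -0.08. Of 10 factors that bind MHC promoters, 0 were lower at that threshold and 1, the NF-Y subunit Nfyb, was higher (8.94 ± 0.693 FPKM in the controls, 10.2 ± 0.625 in cKO, SD, n = 4). That call of Nfyb was lost with an equal FPKM sum per library, without the trend, and without any 1 of 6 libraries (all except control replicate 3 and cKO replicate 4). Rfx5, Creb1 and Irf1 did not reach that p, with log2 differences of -0.15, 0.04 and -0.01. Of 12 other loading and processing genes, the endosomal protease Ctss, which trims the invariant chain, was lower (log2 difference -0.32, SE 0.13) and Ctsb was higher (0.22, SE 0.09). The call of Ctss was lost without any 1 of control replicates 1 and 2 and cKO replicates 2 and 3. That of Ctsb was lost with an equal FPKM sum and without any 1 of 5 libraries (all except control replicates 3 and 4 and cKO replicate 3). The abundant loading chaperones Calr and Pdia3 differed by -0.06 and -0.04.

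Of the interferon lists, 3 of 12 targets and 1 of 4 receptor and kinase genes passed the unadjusted threshold, the targets downwards and the receptor upwards. The shares of all genes tested were 7.53% and 8.85%. Of the 12 interferon targets, Isg15, Cxcl10 and Irf7 had such a p, and 11 of the 12 had a log2 difference below 0, against 49.8% of all genes. Isg15, a ubiquitin-like modifier, was at 155, 154, 146 and 176 FPKM in the controls and at 118, 111, 112 and 121 in the cKO libraries. It fell by 0.44 on the log2 scale (SE 0.08, adjusted p = 0.0381), and its adjusted p ranged from 0.0103 to 0.236 over the alternatives. Cxcl10, a chemokine for T cells, did not overlap between the groups (log2 difference -0.77, SE 0.17, adjusted p = 0.0811). Its adjusted p ranged from 0.0122 to 0.419 over the alternatives and was between 0.0122 and 0.0474 in the 4 where it passed. Of 5 turnover and costimulation genes tested, Cd86, a costimulatory ligand, and Cd40, a receptor for T cell help, did not overlap either (log2 differences -0.31, SE 0.11, and -0.33, SE 0.08). Of the 4 interferon gamma receptor and kinase genes, Ifngr2 had such a p and a higher mean (0.15, SE 0.07), which was lost with 7 other settings, among them an equal FPKM sum (0.09) and limma-voom, and without any 1 of 6 libraries (all except control replicate 4 and cKO replicate 3). Of 5 MHC-like molecules tested, Procr, the protein C receptor with a class I fold, was at 177, 191, 194 and 209 FPKM in the controls and at 132, 110, 109 and 104 in the cKO libraries. It fell by 0.76 on the log2 scale (SE 0.09, adjusted p = 0.0204, ranging from 0.00728 to 0.200 over the alternatives). Isg15 and Procr were the 2 of these 56 genes that passed the adjusted threshold. Of the 6 proteasome activator and constitutive subunit genes, 0 had an unadjusted p under 0.05.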

How the data were processed

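RNA-seq libraries were made by the authors from 4 control and 4 cKO mice with a NEBNext Ultra kit, checked with FastQC and mapped to GRCm38 with Hisat2. The submitters' processing notes name StringTie 1.3.3b and featureCounts 1.5.0-p3, and build mm9, but 99.7% of the 55394 gene identifiers found in GENCODE vM21 have GRCm38 coordinates. Strand use and the treatment of multi-mapping reads are not given in the sources used here. The authors deposited FPKM. Each value was a whole number of reads for 100% of values (tolerance 0.01 of a read), and the deposited FPKM already held median-of-ratios size factors. Groups and replicate numbers came from the sample labels.

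FPKM are not counts, so log2(FPKM + 1) was tested with limma 3.58.1 in R 4.3.3 (empirical Bayes with trend, Benjamini-Hochberg adjustment over the 15143 genes with a mean of at least 0.5 FPKM). Members were chosen by name, every member that passed the filter was named, and pathway and marker genes were named where their unadjusted p was under 0.05, with some of the most abundant genes of each list. The members and lists were chosen with earlier results of these data known, and 2 further listed genes are not reported here. Members with reads under the filter were compared by an exact permutation test. On simulated data (15135 to 15151 genes per draw), limma recovered 61.6% of genes changed by 0.75 on the log2 scale and 88.0% of those changed by 1, and 4.43% of its calls were unchanged genes. Every gene was drawn with a dispersion of 0.02, and only genes with a mean of at least 1 FPKM were changed. Some members, such as H2-Q6 and H2-Ob, varied more between mice, so these rates can be too high for them. Of the members tested, only H2-DMb2 differed by more than 0.75. Shared 50-base windows were counted among GENCODE transcripts, and motifs in RefSeq promoter windows. Alternatives were another pseudocount, filters, scalings, limma without trend, replicate blocks, limma-voom on recovered reads, protein-coding genes alone and each library left out. Python 3.11.15, pandas 2.3.3, scipy 1.17.1 and matplotlib 3.10.9 were used. Each group has 4 mice, and genes with few reads carry counting error as well.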

Additional observations from a re-analysis of the deposited data

Results flagged for a closer look

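Among the 60 groups of 4 libraries looked at, 30 genes in 2 groups, a single library stood far from the other 3 in 2 cases, where chance alone gives about 1 in 20, or 3. H2-Q2 was at 0.424 FPKM in control replicate 2 and between 0.876 and 0.926 in the other controls. H2-DMb1 was at 7.11 FPKM in cKO replicate 4 and between 4.81 and 4.87 in the other cKO libraries.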

How the results depend on the processing

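The count of members with an adjusted p under 0.05 was 0 as reported (limma, with 12 of 30 at an unadjusted p under 0.05). It was 1 with an equal FPKM sum per library and 1 with limma-voom on recovered reads (Cd74 in both), where limma-voom called 252 of all genes against 135. Heavy chains lower in cKO at an unadjusted p under 0.05 numbered 4, machinery genes 2 and class II genes 6. With an equal FPKM sum they numbered 7, 6 and 7, where the share of all genes rose from 7.53% to 10.9%. With each library left out in turn they ranged from 1 to 6, from 1 to 5 and from 4 to 7, where 6.06% to 7.88% of all genes were lower. The adjusted count stayed at 0, and the count without overlap ranged from 7 to 19 (all genes 6.06% to 7.76%). Without both control replicates 1 and 3, chosen after seeing the data, the counts of the 3 classes were 1, 0 and 3. The log2 difference of H2-T23 ranged from -0.0297 (without control replicate 2) to 0.151 with each library left out, was -0.0267 without cKO replicate 4, and so changed sign, as did that of H2-Q10, from -0.000836 (without cKO replicate 4) to 0.142. The cause of these shifts was not tested beyond the fewer samples. Over the single members and their alternatives, 519 values kept direction and side of the threshold, 34 newly passed it, 36 no longer passed it and 3 reversed.

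The replicate numbers of the groups pair no known litters. Deviations of same-numbered libraries correlated at 0.0797 to 0.137, and not every library correlated best with its own number. The methods name no covariate, so the block was kept out of the reported fit and is given as an alternative. With the replicate block, heavy chains numbered 5, machinery genes 4 and class II genes 5, where 9.55% of all genes were lower, and the adjusted count stayed at 0, while adjusted calls over all genes went from 135 to 50. Deviations of control and cKO libraries correlated positively within replicates 1 and 2 and within replicates 3 and 4 (0.0797 to 0.178) and negatively across these sets (-0.21 to -0.0720). A block of the 2 sets (replicates 1 and 2 against 3 and 4) gave counts of 4, 2, 6 and 0 (9.47% of all genes lower), with H2-M9 in place of H2-K1 among the heavy chains, and called 442 of all genes. With the block on recovered reads in limma-voom, heavy chains numbered 5, machinery genes 4 and class II genes 7 and the adjusted count was 3 (Cd74, H2-Ab1 and H2-Ob), while 680 of all genes were called and 10.8% of all genes were lower at an unadjusted p under 0.05.

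Depth limits the genes near 0.5 FPKM, and with 4 mice per group real changes can be missed.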
